A study of Mus musculus with 24 samples.

Results

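Collagen chains were examined in cultured liver endothelial cells in which the cell cycle inhibitor and senescence marker P16Ink4a had been silenced or overexpressed. A gene was counted as a collagen chain when the deposited table listed it as protein-coding and its symbol had the form Col, a number, the letter a and a number. This rule used no measured value and found 44 of the 56748 genes listed, but it was chosen with earlier results of these data known. RNA was sequenced in 24 libraries, 3 for each of 8 groups, made from Cd31+ liver endothelial cells or Cd146+ liver sinusoidal endothelial cells of C57BL/6 mice, stated in the methods to be females of 3 months. The cells were grown in culture, received a lentiviral construct and were lysed 1 week later. Silencing used a small hairpin against P16 (P16 shRNA) with a non-coding hairpin as its control (nc shRNA), both in the pLKO.1 vector. Overexpression used P16 fused to GFP (P16) with the same backbone without the insert as its control (empty vector). All 8 groups therefore carry a lentivirus. Nothing in the labels says that the 3 libraries of a group come from separate animals, so p-values measure the spread between these samples, which may be at least partly technical.

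Collagens are secreted proteins in which chains wind around each other into a stiff helix, and each type is named for the chains it is built from. Fibrillar collagens (types I, II, III, V, XI, XXIV and XXVII) form the load-bearing fibrils of connective tissue, and type IV forms the sheet-like scaffold of basement membranes, on which endothelial cells rest. Chains are hydroxylated and folded in the endoplasmic reticulum, trimmed outside the cell and then crosslinked. In the liver, the sinusoidal endothelium normally lies on a loose matrix without a continuous basement membrane, and fibrillar collagen accumulates in fibrosis, for which hepatic stellate cells are the best-known source.

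The libraries held 15409767 to 26470392 reads on genes, and 1.77 to 6.68% of these fell on collagen chains. Cdkn2a, the gene that encodes P16Ink4a, separated each construct from its control without overlap. It was at 36.7 to 75.7 CPM (reads scaled to a common library size, by trimmed mean of M-values) with nc shRNA and 5.07 to 9.19 with P16 shRNA in Cd31+ cells, and at 95.1 to 193.9 against 7.70 to 25.3 in Cd146+ cells. With the empty vector it was at 32.3 to 81.5 CPM and with P16 at 138.4 to 330.2 in Cd31+ cells, against 70.4 to 103.9 and 227.5 to 831.7 in Cd146+ cells. The endothelial marker Pecam1 (Cd31) was at 61.3 to 283 CPM in 21 libraries and at 4.00 to 10.1 CPM in the 3 Cd146+ libraries numbered 3, which also held Mcam (Cd146) at 3.18 to 11.6 CPM. The endothelial markers did not all go this way in these 3 libraries. Cdh5 was low as well (3.71 to 6.37 CPM), but Eng was at 281 to 295 CPM, inside its range over all libraries (62.3 to 702 CPM). The 8 sinusoidal markers were uneven, with Stab1 at 3.68 to 430 CPM, Mrc1 at most at 21.8 CPM, Lyve1 at most at 7.51 CPM, Stab2 at most at 0.949 CPM and Clec4g at most at 0.224 CPM. Among the mesenchymal markers, Acta2 was at 988 to 5680 CPM and Dcn at 66.8 to 1690 CPM, but Reln at most at 0.508 CPM and Lrat at most at 0.134 CPM, while the 6 hepatocyte markers summed to at most 0.934 CPM. Xist was at 321.9 to 764.6 CPM in 8 libraries without Y-linked Ddx3y, and Ddx3y at 52.4 to 168.3 CPM in the other 16, which does not match the females stated in the methods. Every group except Cd31+ nc shRNA and Cd31+ P16 shRNA holds libraries of both kinds. The 3 libraries of such a group therefore do not all come from 1 animal. In these bulk samples, a smaller number of cells of a type and less RNA per cell cannot be told apart.

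Several chains are encoded in pairs on one chromosome. Col4a1 and Col4a2, which together form the common type IV network, lie head to head on chromosome 8, and their listed ends overlap by a few bases (Col4a1 from 11248423 to 11362826 on the minus strand, Col4a2 from 11362805 to 11499287 on the plus strand, in the coordinates of the deposited table, whose build is not stated). Col4a3 and Col4a4, chains of a type IV network known from the kidney filter, are head to head on chromosome 1 with 71 bases between them, and Col4a5 and Col4a6 on chromosome X with 1308 bases between them. Col3a1 and Col5a2, chains of types III and V, are neighbours on chromosome 1 that end toward each other across 24614 bases. The promoter windows of Col4a1 and Col4a2 are shown because the shared start region is a single stretch of DNA. They run from 250 bases before to 50 bases after the start in RefSeq on GRCm38.p6, 5′ to 3′ on each gene's own strand, and the capitals mark the 78 bases that both windows contain, which are reverse complements of each other.
Col4a1, chr8:11312777-11313076, strand -: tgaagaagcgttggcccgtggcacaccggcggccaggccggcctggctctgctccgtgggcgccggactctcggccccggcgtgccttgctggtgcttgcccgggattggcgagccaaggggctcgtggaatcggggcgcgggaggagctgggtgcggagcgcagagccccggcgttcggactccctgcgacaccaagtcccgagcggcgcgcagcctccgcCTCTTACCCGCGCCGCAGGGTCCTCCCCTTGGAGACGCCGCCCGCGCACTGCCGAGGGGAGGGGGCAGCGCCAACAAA
Col4a2, chr8:11312555-11312854, strand +: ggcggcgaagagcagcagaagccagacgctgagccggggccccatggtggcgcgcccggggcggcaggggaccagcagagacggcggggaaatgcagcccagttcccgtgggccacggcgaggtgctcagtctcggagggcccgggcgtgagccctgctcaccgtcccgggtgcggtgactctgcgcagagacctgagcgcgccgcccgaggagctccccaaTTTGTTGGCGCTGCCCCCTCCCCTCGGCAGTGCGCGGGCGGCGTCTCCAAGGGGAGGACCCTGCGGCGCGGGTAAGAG

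Of the 44 chains, 35 had a promoter in the RefSeq table. The motif GGGCGG or its reverse complement was present in 60% of these 35 windows and in 35.7% of all 32851 windows of that table. The chains are all protein-coding, but the 32851 windows were not restricted to protein-coding genes. The sets are therefore unlike, and no difference in motifs was tested. CCAAT in either orientation was in 34.3% against 37.4%, and TATAAA in either orientation in 14.3% against 13.6%. The windows of Col3a1, Col11a1 and Col28a1 are shown as examples, with matches to these motifs in capitals. These chains were higher in every pair of Cd31+ cultures after silencing of P16, but so were others not shown, such as Col11a2 and Col20a1. Col3a1 holds a TATAAA and neither of the others, Col11a1 holds GGGCGG and the reverse complement of CCAAT, and Col28a1 holds none of them.
Col3a1, chr1:45311288-45311587, strand +: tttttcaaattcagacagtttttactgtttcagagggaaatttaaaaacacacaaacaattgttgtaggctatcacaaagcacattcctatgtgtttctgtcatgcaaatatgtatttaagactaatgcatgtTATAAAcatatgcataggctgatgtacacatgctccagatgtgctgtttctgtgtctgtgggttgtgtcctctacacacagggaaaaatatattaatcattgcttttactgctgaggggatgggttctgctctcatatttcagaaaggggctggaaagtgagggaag
Col11a1, chr3:114030290-114030589, strand +: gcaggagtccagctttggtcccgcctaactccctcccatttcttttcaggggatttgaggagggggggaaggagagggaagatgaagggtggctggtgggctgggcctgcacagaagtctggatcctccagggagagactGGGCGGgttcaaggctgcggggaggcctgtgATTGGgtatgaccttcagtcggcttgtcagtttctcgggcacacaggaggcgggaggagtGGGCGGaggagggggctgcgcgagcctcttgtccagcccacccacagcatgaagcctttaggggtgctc
Col28a1, chr6:8192568-8192867, strand -: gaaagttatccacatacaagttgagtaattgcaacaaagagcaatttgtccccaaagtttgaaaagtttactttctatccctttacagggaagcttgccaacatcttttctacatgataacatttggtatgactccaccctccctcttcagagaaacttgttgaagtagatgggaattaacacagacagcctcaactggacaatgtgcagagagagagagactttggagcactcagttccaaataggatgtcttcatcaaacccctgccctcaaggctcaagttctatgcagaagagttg

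Fibrillar chains dominated collagen expression in both populations. They took 71.3% of all reads on collagen chains, with a range over libraries of 48.9 to 84.7%, followed by type IV with 15.6% (8.63 to 26.6%) and type VI, the beaded filaments, with 7.60% (2.04 to 16.4%). The mean over the 24 libraries was at least 1 CPM for 33 of the 44 chains and at least 100 CPM for 16, and all 44 had reads in some library. Divided by the gene length listed in the table, Col1a1, the major chain of type I, led with a mean of 1667 CPM per kilobase. Col1a2, its partner, followed with 514.3, then Col5a2 with 508.8, Col4a1 with 442.7, Col3a1 with 442.1, Col6a1 with 369.6, Col4a2 with 286.8 and Col5a1 with 210.0 CPM per kilobase. These 8 chains held 88.5% of the summed collagen level per kilobase. Per listed length, Col1a1 was above Col1a2 in all 24 libraries, with a ratio of 2.08 to 8.74, while per transcript length the lowest ratio was 0.988. Col1a2 and Col5a2 were not separated, at 213.2 to 17650 CPM and 2976 to 9955 CPM over the libraries, and the ranges of the chains that follow overlap as well. Per kilobase of the longest coding transcript in GENCODE M21, 7 of the 8 chains were again among the highest 8, with Col6a2 in place of Col5a1.

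**Figure D1:**
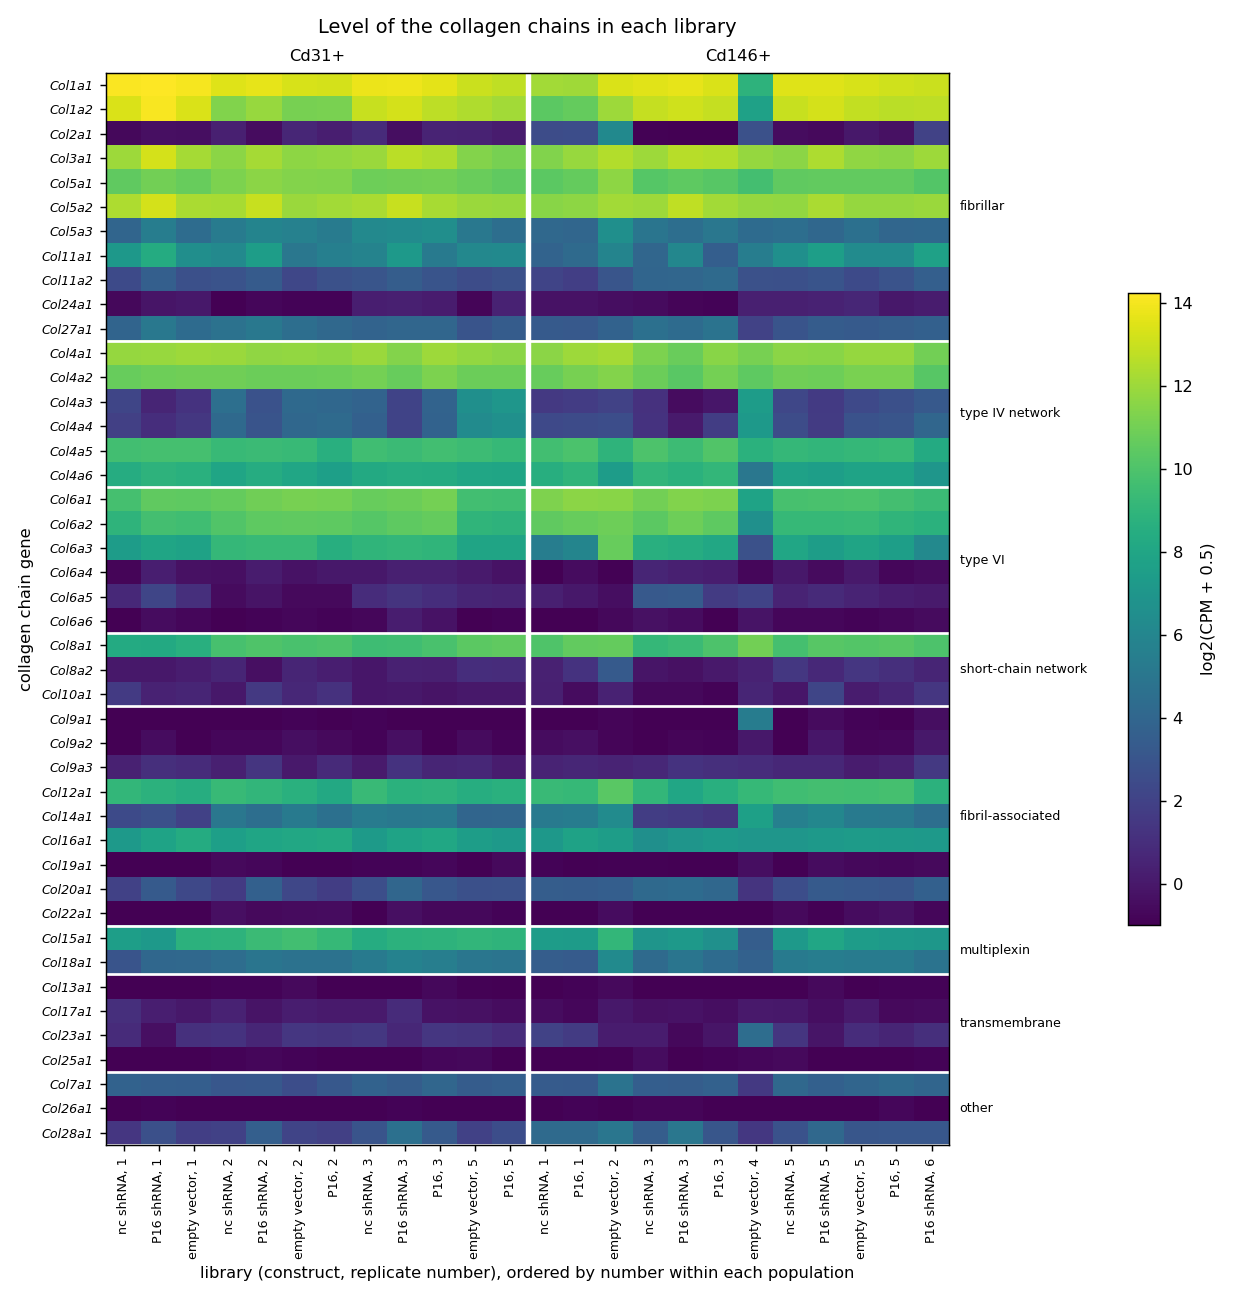
Level of the 44 collagen chains (rows, grouped by class) in the 24 libraries (columns, ordered by replicate number within Cd31+ and Cd146+ cells), as log2(CPM + 0.5) on a color scale. Fibrillar and type IV chains form the bright rows, and the Cd146+ library with the empty vector and number 4 stands out with low Col1a1 (454.2 CPM) and high Col4a3 (167.9 CPM).

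Collagen chains in silenced and control Cd31+ cultures differed in how their levels split between replicate number and construct. Among the 33 chains tested in the silencing comparison of Cd31+ cells, the median share of the variation of log2(CPM + 0.5) that went with the number was 54.0%, against 26.4% for the construct. With no effect of either, the number would be near 40% and the construct near 20%, so the medians do not rank the number above the construct. Both shares describe the same 6 libraries (numbers 1, 2 and 3 with each hairpin) and were not tested. Col8a1, a short-chain network collagen of vessels, had 98.9% of its variation with the number and 0.160% with the construct. Col1a1 had 96.6% and 2.59%. Col5a2 showed the opposite split, with 5.57% for the number and 92.3% for the construct, and Col9a3, a fibril-associated chain known from cartilage, had 1.81% and 93.2%.

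The type I chains differed between the numbers. In Cd31+ cells, Col1a2 was at 2650 CPM with nc shRNA, 3805 with P16 shRNA, 2186 with the empty vector and 2324 with P16 in the 4 cultures numbered 2, and at 4403 to 17650 CPM in the other 8. Col1a1 in the same 4 cultures was at 9933 to 12960 CPM, inside the range of the others (6937 to 19340 CPM). The ratio of Col1a1 to Col1a2 per kilobase of transcript was therefore 3.07 to 4.16 in these 4 cultures and 0.988 to 1.71 in the other 8. In Cd146+ cells the ratio was highest in the cultures numbered 1, with 3.06 for nc shRNA and 2.49 for P16, and was 1.09 to 1.44 in the 8 cultures numbered 3, 5 and 6. Within the 3 Cd31+ pairs that share a number, the silenced culture had the lower ratio each time (0.988 against 1.57, 3.07 against 3.99 and 1.35 against 1.65). Per listed gene length the ratios were higher (median over 24 libraries 3.00 against 1.43), since Col1a2 is listed at 12426 bases and its longest coding transcript at 5348.

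**Figure D2:**
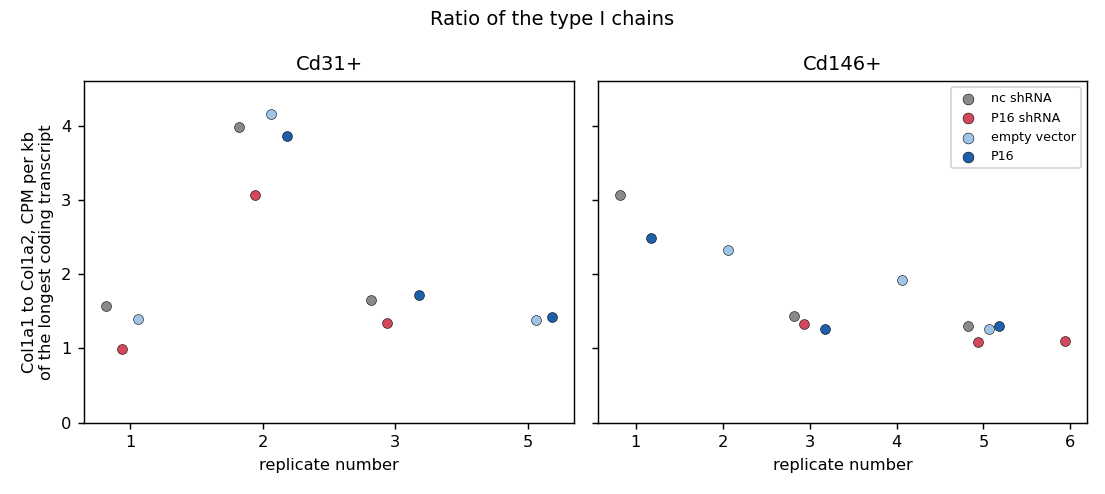
Ratio of Col1a1 to Col1a2, each as CPM per kilobase of its longest coding transcript, by replicate number in Cd31+ (left) and Cd146+ (right) cells, 1 point per library colored by construct. The 4 Cd31+ cultures numbered 2 lie at 3.07 to 4.16, above all other Cd31+ libraries.

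Levels of paired chains were correlated across libraries. Within 12 libraries, the Pearson correlation of log2(CPM + 0.5) was 0.995 in Cd31+ and 0.969 in Cd146+ cells for Col4a3 with Col4a4, and 0.982 and 0.992 for Col6a1 with Col6a2, whose products join in type VI filaments. Without the 2 libraries farthest from the median of Col4a3, its correlation with Col4a4 was 0.992 and 0.827. Col4a1 with Col4a2 had 0.712 and 0.927, Col4a5 with Col4a6 had 0.878 and 0.815, and Col3a1 with Col5a2 had 0.864 and 0.857. The points share cultures, so these values describe the libraries and carry no test. Col4a3 and Col4a4 spanned the widest range of these pairs. Col4a3 was at 95.2 and 126.7 CPM in the 2 Cd31+ cultures numbered 5 and at 167.9 CPM in the Cd146+ empty vector culture numbered 4, and Col4a4 was at 79.5, 100.9 and 152.2 CPM in the same libraries. In the other 21 libraries both chains stayed between 0.215 and 23.6 CPM. All 3 libraries with the high levels hold Xist, and so do 5 libraries with low levels.

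**Figure D3:**
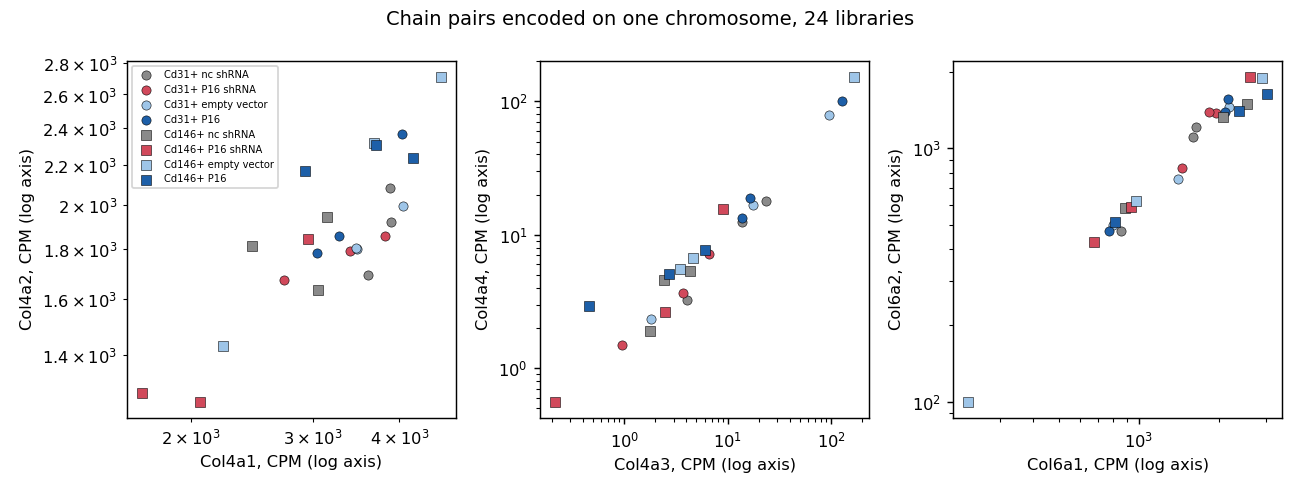
CPM of Col4a2 against Col4a1, Col4a4 against Col4a3 and Col6a2 against Col6a1 in the 24 libraries (log axes, circles Cd31+, squares Cd146+, colors for constructs). The points of Col4a3 and Col4a4 lie close to a line from 0.215 to 167.9 CPM of Col4a3.

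The first comparison asks how the collagens of Cd31+ cells differ after silencing of P16. Collagen chains were more often higher than lower with P16 shRNA. With the 3 libraries of each group and no block, 8 of the 33 chains tested were higher at an unadjusted p under 0.05 and 1 was lower (edgeR quasi-likelihood test). That is 24.2% and 3.03% of the chains, where 9.51% and 10.3% of all genes tested were called in these directions. The median log2 fold change of the chains was 0.37, against 0.0034 over all genes. At an adjusted p under 0.05 no chain was called (edgeR), where 1.3% of all genes were (0.383% higher), and 9 had an unadjusted p under 0.05, while DESeq2's Wald test called 7 of 33 chains higher (21.2%, against 2.8% of all genes). The replicate numbers were treated as pairing the cultures of a population. With the number as a block 14 chains rose (42.4%, against 8.92% of all genes) and 3 fell (9.09%, against 9.9%) at an adjusted p under 0.05.

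Fibrillar chains made up the largest group. All 9 fibrillar chains tested had a positive fold change, 4 of them at an unadjusted p under 0.05 and 6 at an adjusted p under 0.05 with the block. Col5a2, a regulatory chain that joins type I fibrils, was at 5232, 4943 and 4984 CPM with nc shRNA and at 9955, 7923 and 8008 CPM with P16 shRNA in the cultures numbered 1, 2 and 3. The groups did not overlap, and the difference was far larger than the spread of the controls. Its log2 fold change was 0.79 ± 0.14 (SE; unadjusted p = 0.00071, adjusted p = 0.0521, and adjusted p = 0.001 with the block).

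Col3a1, the chain of type III collagen of extensible tissues and vessel walls and the neighbour of Col5a2, was at 4162, 3088 and 4010 CPM with nc shRNA and at 9704, 4589 and 6478 CPM with P16 shRNA. The pairs differed by 2.33-, 1.49- and 1.62-fold, and the lowest silenced culture was above the highest control. The log2 fold change was 0.89 ± 0.28 (unadjusted p = 0.0156, adjusted p = 0.156, with the block 0.0031). Col11a1 and Col11a2 are minor fibrillar chains known from cartilage. Col11a1, which was chosen after its values were seen, was at 138.4, 71.4 and 55.8 CPM against 331.9, 176.3 and 153.6 CPM. The groups did not overlap, the pairs differed by 2.39-, 2.46- and 2.74-fold, and its adjusted p with the block was 9.5e-05 against 0.184 without. Col11a2 was at 4.76, 7.07 and 7.44 CPM against 11.6, 9.96 and 10.9 CPM, again without overlap (log2 fold change 0.76 ± 0.21, unadjusted p = 0.0075, adjusted p 0.115 and with the block 0.0245). Leaving out 1 library took the unadjusted p to 0.0534 for Col3a1 (nc shRNA 2), and for Col11a1 to 0.0808 (nc shRNA 2), 0.0694 (nc shRNA 3) and 0.0687 (P16 shRNA 1).

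Col1a1 was at 18480, 11720 and 14260 CPM with nc shRNA and at 19340, 12960 and 14650 CPM with P16 shRNA, with overlapping groups, each silenced culture above the control of its number, and a log2 fold change of 0.09 ± 0.23 (unadjusted p = 0.706, adjusted p 0.869, with the block 0.466). Col1a2 was at 10600, 2650 and 7809 CPM against 17650, 3805 and 9794 CPM, again with overlapping groups and each silenced culture above its control. Its log2 fold change was 0.58 ± 0.69 (adjusted p = 0.694), and with the block 0.54 ± 0.10 (adjusted p = 0.0082).

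Fibril-associated chains, which decorate the surface of fibrils, went in both directions. Of the 5 tested, 3 were higher and 1 was lower at an unadjusted p under 0.05, and the same counts passed an adjusted p under 0.05 with the block. Col20a1 was at 3.42, 2.59 and 5.76 CPM with nc shRNA and at 9.40, 12.5 and 15.7 CPM with P16 shRNA, with no overlap (log2 fold change 1.69 ± 0.34, unadjusted p = 0.0017, adjusted p 0.0704 and with the block 0.0011). Col16a1 was at 152.1, 193.6 and 156.2 CPM against 228.3, 243.6 and 232.9 CPM, again without overlap (log2 fold change 0.51 ± 0.12, adjusted p = 0.0891 and with the block 0.0068). Col9a3 was low, at 0.560 to 0.805 CPM with nc shRNA and 1.55 to 2.00 CPM with P16 shRNA (log2 fold change 1.37 ± 0.31, adjusted p = 0.0874 and with the block 0.0238). In Cd31+ cells with the empty vector, the control of overexpression, Col16a1 was at 264.1 ± 76.6 CPM (SD, n = 3), a mean above that of the silenced cultures (235.0 CPM). Col20a1 and Col9a3 were at 4.88 ± 1.06 and 1.01 ± 0.43 CPM with the empty vector, means below all silenced cultures.

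Col12a1, a fibril-associated chain of tendon and other loaded tissues, was the chain in the opposite direction. It was at 533.8, 626.6 and 647.3 CPM with nc shRNA and at 445.4, 516.1 and 424.5 CPM with P16 shRNA. All silenced cultures were below all cultures with nc shRNA. Its log2 fold change was -0.37 ± 0.13 (unadjusted p = 0.0218, adjusted p 0.176, with the block 0.0356). Without nc shRNA 3, P16 shRNA 1 or P16 shRNA 3 the unadjusted p was 0.0704, 0.0609 and 0.0813. With the empty vector, the control of overexpression, Col12a1 was at 376.4 ± 32.5 CPM (SD, n = 3) in Cd31+ cells, lower than with P16 shRNA.

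Col28a1, a chain with von Willebrand factor domains, was also chosen after its values were seen. It was at 2.21, 3.39 and 7.33 CPM with nc shRNA and at 6.198, 11.6 and 23.96 CPM with P16 shRNA in the cultures numbered 1, 2 and 3. The groups overlapped, but each silenced culture exceeded the control of its number, by 2.47-, 3.10- and 3.13-fold on the scale of CPM + 0.5. The log2 fold change was 1.70 ± 0.63 (unadjusted p = 0.0349, adjusted p 0.216), and its adjusted p with the block was 0.0004. Without nc shRNA 1, nc shRNA 2, P16 shRNA 2 or P16 shRNA 3 the unadjusted p was 0.1, 0.108, 0.05 and 0.106.

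**Figure D4:**
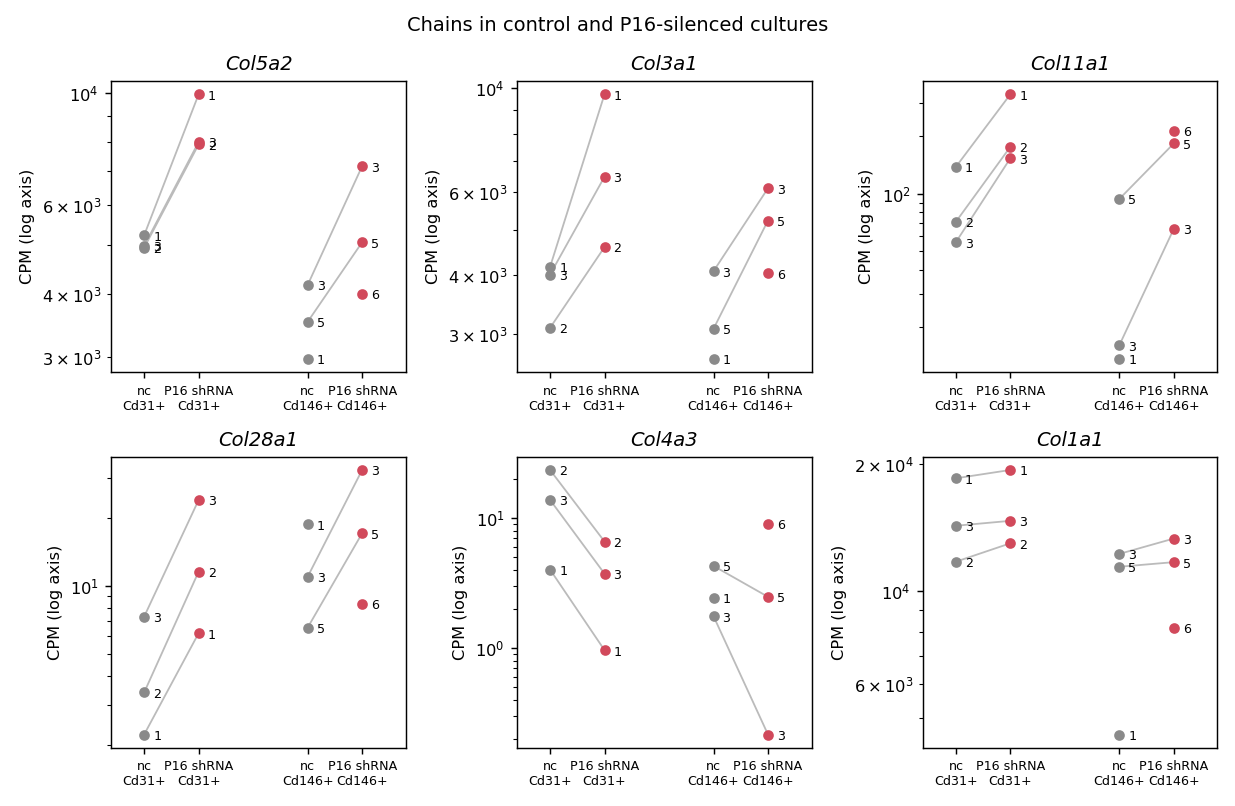
CPM (log axis) of 6 collagen chains with nc shRNA (grey) and P16 shRNA (red) in Cd31+ and Cd146+ cells, 1 point per library labelled with its replicate number and grey lines joining equal numbers. In Cd31+ cells every line of Col5a2, Col3a1, Col11a1 and Col28a1 goes up and every line of Col4a3 goes down.

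Type IV chains did not share a direction in Cd31+ cells. No type IV chain of the 6 tested had an unadjusted p under 0.05 without the block, and with it 1 rose and 2 fell at an adjusted p under 0.05. These chains were chosen after their values were seen. Col4a6 had a log2 fold change of 0.36 (adjusted p = 0.0341 with the block). Col4a3 was at 4.03, 23.6 and 13.9 CPM with nc shRNA and at 0.962, 6.62 and 3.74 CPM with P16 shRNA. Col4a4, its neighbour, was at 3.22, 17.9 and 12.4 CPM against 1.496, 7.24 and 3.65 CPM. For both chains the groups overlapped and every silenced culture was below the control of its number. The log2 fold change of Col4a3 was -1.86 ± 0.84 (adjusted p = 0.29) without and -1.88 ± 0.16 (adjusted p = 0.00028) with the block, and that of Col4a4 was -1.42 ± 0.76 (adjusted p = 0.362) and -1.41 ± 0.19 (adjusted p = 0.0019). Over all alternatives the adjusted p in Cd31+ cells ranged from 4.1e-06 to 0.161 for Col5a2, 3.2e-07 to 0.345 for Col3a1, 4.1e-05 to 0.522 for Col11a1, 0.00038 to 0.486 for Col28a1, 5.4e-05 to 0.633 for Col4a3 and 0.00017 to 0.633 for Col4a4.

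All 5 type VI chains tested had a positive fold change, and 2 rose with the block (Col6a1 by 0.41 and Col6a2 by 0.46 on the log2 scale, adjusted p 0.0431 and 0.0328). Neither passed without it (adjusted p 0.48 and 0.622). Other gene groups in the same 6 libraries were read beside these chains, and their lists were chosen with earlier results of these data known. At an unadjusted p under 0.05 without the block, 9.51% of all genes were higher and 10.3% lower. At an adjusted p under 0.05 with the block, 8.92% were higher and 9.9% lower. No share over all genes is given for a direction held in all 3 pairs. The 12 endothelial markers summed to 456.5 to 910.2 CPM with nc shRNA and 302.2 to 585 CPM with P16 shRNA, and 0 of the 11 tested had an unadjusted p under 0.05 without the block, while with it 1 was higher and 1 lower at an adjusted p under 0.05. Of the endothelial markers, Eng and Kdr were lower and Egfl7 was higher in all 3 pairs. Of the 8 sinusoidal markers, Mcam and Fcgr2b were lower and Lyve1 and Stab2 higher in all 3 pairs. For Fcgr2b and Stab2 these directions carry little information. Fcgr2b was at 0.056 against 0.0462 CPM in the pair numbered 3, under the floor of 3 counts (0.113 to 0.195 CPM). Stab2 was at 0.0671 CPM in nc shRNA 1, also under it, and at 0.33 against 0.334 CPM in the pair numbered 2. The 13 mesenchymal markers summed to 3548 to 4338 CPM and 3097 to 4615 CPM, with 0 of 11 tested called without the block, and 2 higher and 2 lower at an adjusted p with it. Of these 13, 6 were higher in all 3 pairs (Dcn, Postn, Pdgfra, Pdgfrb, Lum and Reln) and 3 were lower in all 3 pairs (Thy1, Des and Rgs5). Reln was at 0 to 0.112 CPM with nc shRNA, under the floor of 3 counts. The 5 mesothelial markers summed to 456.4 to 827.1 CPM and 646.2 to 1113 CPM, with Wt1, Upk1b and Gpm6a higher and Msln lower in all 3 pairs, and 3 higher at an adjusted p with the block. Of the 4 cholangiocyte markers Spp1, Krt7 and Epcam were higher in all 3 pairs, but Epcam was at most at 0.0557 CPM, under the floor of 3 counts. Krt19 was lower in the pairs numbered 2 (27.6 against 7.74 CPM) and 3 (27.6 against 5.08 CPM). The 16 interferon response genes summed to 217.6 to 400.3 CPM and 660.7 to 2433 CPM, and 14 of the 15 tested were higher at an unadjusted p under 0.05. The part of these markers and of the interferon response genes in the collagen results was not tested.

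**Figure D5:**
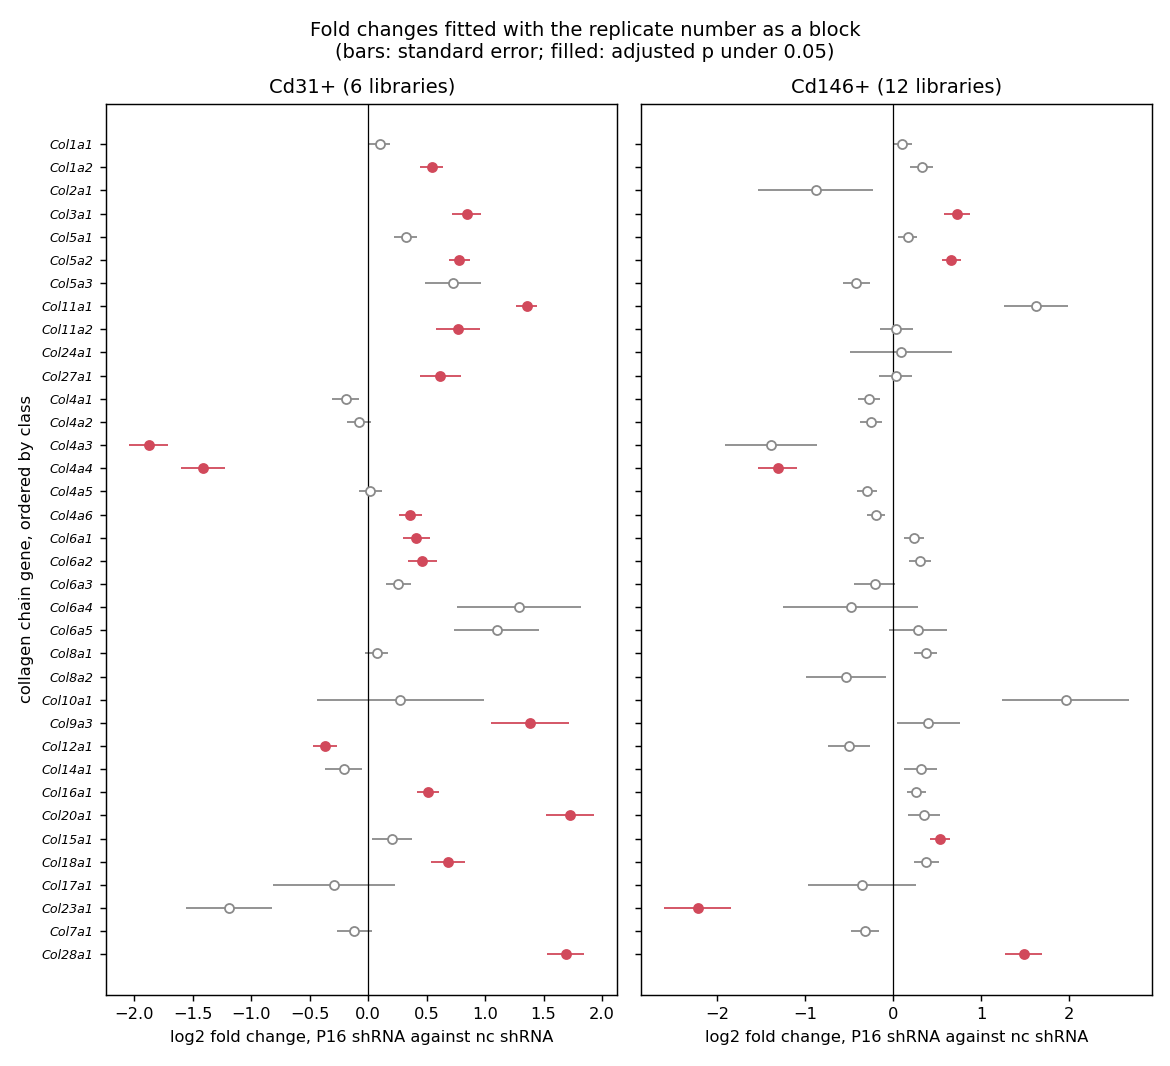
Log2 fold change of collagen chains between P16 shRNA and nc shRNA with the replicate number as a block, in Cd31+ cells (left, 6 libraries) and Cd146+ cells (right, 12 libraries of the population), with standard errors as bars and filled points for an adjusted p under 0.05. In Cd31+ cells 14 filled points lie above 0 and 3 below, and in Cd146+ cells 4 lie above and 2 below.

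The same comparison in Cd146+ cells called fewer chains. Of 34 tested, 1 was higher at an unadjusted p under 0.05 (5.44% of all genes were) and 0 were lower (6.18% of all genes were), with a median log2 fold change of 0.17 against 0.03 over all genes. No chain and no gene passed an adjusted p under 0.05 (edgeR), and DESeq2's Wald test called 0 chains and gave 3 an unadjusted p under 0.05 (6.1% of all genes). Col3a1 was at 2654, 4077 and 3074 CPM with nc shRNA (numbers 1, 3 and 5) and at 6122, 5227 and 4037 CPM with P16 shRNA (numbers 3, 5 and 6). The groups overlapped only through the control numbered 3 and the silenced culture numbered 6. Its log2 fold change was 0.66 ± 0.25 (unadjusted p = 0.0338, adjusted p 0.422), and the unadjusted p was 0.0859, 0.0946, 0.116 and 0.0758 without nc shRNA 1, nc shRNA 5, P16 shRNA 3 or P16 shRNA 5. Without the libraries numbered 3, which were low in Pecam1, it was 0.0625.

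With the number as a block over the 12 Cd146+ libraries, 4 of 36 chains rose (11.1%, against 3.53% of all genes) and 2 fell (5.56%, against 4.8%) at an adjusted p under 0.05. Within the silencing pairs this fit rests on the numbers 3 and 5, and the same block on the 6 libraries alone called 0 chains at an adjusted p under 0.05 and 12 at an unadjusted p under 0.05 (16.5% of all genes). Chains other than Col3a1 were chosen after their values were seen. Col5a2 was at 2976, 4168 and 3523 CPM with nc shRNA and at 7169, 5066 and 4000 CPM with P16 shRNA, with overlap through the control numbered 3. Its log2 fold change was 0.61 ± 0.27 (adjusted p = 0.439) without the block and 0.66 ± 0.11 (adjusted p = 0.011) with it, while Col3a1 had 0.72 ± 0.15 (adjusted p = 0.0213).

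Col28a1 was at 18.7, 10.98 and 6.55 CPM with nc shRNA and at 32.5, 17.1 and 8.36 CPM with P16 shRNA, with overlapping groups. Its log2 fold change was 0.68 ± 0.57 (adjusted p = 0.636) without and 1.49 ± 0.21 (adjusted p = 0.0069) with the block, and -0.0053 without the libraries numbered 3. Col11a1 was at 13.7, 16.1 and 94.0 CPM against 65.7, 183.6 and 213.2 CPM, and did not pass either fit (adjusted p 0.443 and 0.065). Col15a1, a multiplexin of vessel basement membranes, had 0.53 with the block (adjusted p = 0.0269, and 0.244 with the block on the 6 libraries). Col23a1, a transmembrane chain, had -2.22 (adjusted p = 0.0123, and 0.183 on the 6 libraries), and its log2 fold change without the block was -0.92 to -2.97 when 1 library was left out. Over all alternatives their adjusted p reached 0.961 and 0.923.

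Col4a3 and Col4a4 depended on the block in Cd146+ cells. Col4a3 was at 2.43, 1.76 and 4.30 CPM with nc shRNA and at 0.215, 2.48 and 9.08 CPM with P16 shRNA, and Col4a4 at 4.58, 1.89 and 5.32 CPM against 0.559, 2.63 and 15.7 CPM. The silenced cultures numbered 3 and 5 were below their controls and the one numbered 6, which has no control of its number, was the highest. The log2 fold change of Col4a4 was 0.70 ± 1.10 (adjusted p = 0.812) without the block and -1.31 ± 0.22 (adjusted p = 0.0124) with it, and that of Col4a3 was 0.49 ± 1.10 and -1.39 ± 0.52 (adjusted p = 0.152 with the block). Over all alternatives the adjusted p in Cd146+ cells ranged from 0.011 to 0.889 for Col5a2, 0.0213 to 0.889 for Col3a1, 0.0069 to 0.998 for Col28a1 and 0.0124 to 0.95 for Col4a4.

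Whether silencing acted differently in the 2 populations was tested as an interaction over the 24 libraries. Of 36 chains, 0 had an unadjusted p under 0.05, where 1.2% of all genes did (edgeR), and 0 passed the adjusted threshold. With a block for the numbers within each population 4 chains had an unadjusted p under 0.05 (4.55% of all genes did) and 0 an adjusted one. These were lower in Cd146+ relative to Cd31+ cells, namely Col20a1 (-1.38 ± 0.31, unadjusted p = 0.00043, adjusted p 0.677), Col5a3 (-1.18 ± 0.35, unadjusted p = 0.005), Col4a6 (-0.55 ± 0.19, unadjusted p = 0.0091) and Col11a2 (-0.71 ± 0.28, unadjusted p = 0.0213), and they were chosen after their values were seen. The difference between populations in log2 fold change (Cd146+ minus Cd31+) was -0.17 ± 0.28 for Col5a2, -0.23 ± 0.48 for Col3a1 and 0.16 ± 0.93 for Col1a1. With the block these were -0.11 ± 0.15, -0.12 ± 0.23 and 0.017 ± 0.15, none past an unadjusted p of 0.05.

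Overexpression of P16 moved few collagen chains past a threshold. In Cd31+ cells 0 of 35 chains tested had an unadjusted p under 0.05 (edgeR), where 3.73% of all genes did, and with the block 2 had an unadjusted p under 0.05 (7.98% of all genes did) and 0 an adjusted one (0.632% did). In Cd146+ cells 1 of 34 did, where 3.53% of all genes did, and 0 passed the adjusted threshold. That chain was Col4a5, at 486.2, 428.9 and 578.3 CPM with the empty vector (numbers 2, 4 and 5) and at 977.2, 1098 and 615 CPM with P16 (numbers 1, 3 and 5). The groups did not overlap, but the cultures numbered 5 differed least. The log2 fold change was 0.85 ± 0.26 (unadjusted p = 0.0148, adjusted p 0.986), and with the block over 12 libraries 0.21 (unadjusted p = 0.207).

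Other type IV chains in this comparison were read after their values were seen. Col4a6, the neighbour of Col4a5, was at 167.7, 32.4 and 228.4 CPM with the empty vector and 506.3, 545.5 and 232.7 CPM with P16 (log2 fold change 1.59 ± 0.71, unadjusted p = 0.0657). Col4a3 had a log2 fold change of -4.23 ± 1.82 (unadjusted p = 0.0584) that rests on the empty vector culture numbered 4, at 167.9 CPM, and was -0.36 without it. The difference of the overexpression effect between the populations had an unadjusted p under 0.05 for 3 of 36 chains, where 3.82% of all genes did, and for 0 with the block. These were Col4a5 (1.16 ± 0.42, unadjusted p = 0.0119), Col4a6 (1.88 ± 0.76, unadjusted p = 0.0225) and Col4a3 (-4.71 ± 2.12, unadjusted p = 0.0394), each with an adjusted p of 0.989.

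The populations themselves were compared in the 12 libraries with a control construct. Of 36 chains, 5 were higher and 2 lower in Cd146+ cells at an unadjusted p under 0.05, where 17.5% of all genes were called in either direction, and 0 passed the adjusted threshold (edgeR). DESeq2's Wald test called 2 of 36 chains at an adjusted p under 0.05 (5.56%, against 3.38% of all genes), which were chosen after their values were seen. Col28a1 was at 2.21 to 7.33 CPM in the 6 Cd31+ and 2.31 to 31.4 CPM in the 6 Cd146+ control libraries (log2 fold change 1.75 ± 0.55, edgeR adjusted p = 0.176, Wald adjusted p = 0.0298). Col16a1 was at 152.1 to 327.3 CPM and 95.3 to 180.1 CPM, with overlap (log2 fold change -0.60 ± 0.17, edgeR adjusted p = 0.145, Wald adjusted p = 0.0424).

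Some of the enzymes that modify and fold collagen chains in the endoplasmic reticulum were higher after silencing in Cd31+ cells. Of 22 assembly genes tested, 8 were higher and 0 lower at an unadjusted p under 0.05, where 9.51% and 10.3% of all genes were. This list and the partner lists below were chosen with earlier results of these data known, so the shares over all genes are no independent test of them. At an adjusted p under 0.05, 5 rose (edgeR, where 0.383% of all genes were higher). P4ha2, a prolyl hydroxylase subunit, was at 94.9 ± 5.08 CPM (SD, n = 3) with nc shRNA and 145.5 ± 8.58 CPM with P16 shRNA. Plod1, a lysyl hydroxylase, was at 38.7 ± 4.23 CPM (SD, n = 3) and 82.0 ± 16.6 CPM. Their log2 fold changes were 0.63 ± 0.09 (adjusted p = 0.034) and 1.10 ± 0.17 (adjusted p = 0.0345), and Plod2, P3h1 and Fkbp10 also passed. With the empty vector in Cd31+ cells, P4ha2 was at 92.6 ± 5.22 CPM (SD, n = 3), near nc shRNA. Plod1 was at 62.2 ± 5.40 CPM there, between nc shRNA and P16 shRNA.

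The other partner lists had no adjusted call in Cd31+ cells without the block, and their counts at an unadjusted p stand against 9.51% of all genes higher and 10.3% lower. Of 6 processing genes tested, 1 was higher (Bmp1, the procollagen C-proteinase, log2 fold change 0.55 ± 0.17) and 1 lower (Pcolce2, an enhancer of that cleavage, -1.53 ± 0.35) at an unadjusted p under 0.05. Of 7 crosslinking genes 2 were higher, among them Pxdn, a peroxidase that crosslinks type IV collagen (0.46 ± 0.12), and 1 was lower, the lysyl oxidase Lox (-0.53 ± 0.13). Of 12 breakdown genes 2 were higher, among them the membrane-bound protease Mmp14 (0.68 ± 0.23), and 1 was lower, the protease inhibitor Timp2 (-0.51 ± 0.15). Of 9 receptors 1 was lower, Ddr2, a fibrillar collagen receptor (-0.33 ± 0.11), and of 18 basement membrane partners 3 were higher, among them Agrn (0.69 ± 0.19) and the laminin chain Lamc3 (2.07 ± 0.56), and 2 were lower. Lox was at 4489 CPM with nc shRNA, 3087 with P16 shRNA and 3229 with the empty vector (means in Cd31+ cells). Ddr2 with the empty vector was also nearer to P16 shRNA than to nc shRNA. The other genes named here were nearer to nc shRNA.

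In Cd146+ cells after silencing, 5 of 22 assembly genes were higher and 0 lower at an unadjusted p under 0.05, with Fkbp10 (0.82 ± 0.22) and P3h1 (0.73 ± 0.23) first, and 0 at an adjusted p (edgeR). Of 7 processing genes 1 was lower, Pcolce2 (-1.19 ± 0.40, unadjusted p = 0.0231). Of 7 crosslinking genes 1 was higher, the transglutaminase Tgm2 (0.47 ± 0.18). Of 13 breakdown genes 1 was higher and 3 lower, of 10 receptors 1 and 1, and of 18 basement membrane partners 1 and 2, where 5.44% of all genes were higher and 6.18% lower. With overexpression of P16, 1 of 22 assembly genes (Plod3, 0.33 ± 0.12), 1 of 7 crosslinking genes (Loxl3, 0.46 ± 0.16) and 1 of 12 breakdown genes (the collagen-degrading protease Ctsk, 1.65 ± 0.56) were higher in Cd31+ cells at an unadjusted p under 0.05, and no gene of the other lists. In Cd146+ cells the breakdown gene Mmp3 (3.81 ± 1.48) and the basement membrane partner Nid2 (2.16 ± 0.63) were higher and the partner Lamb3 (-1.14 ± 0.43) lower, and no gene of the other lists had an unadjusted p under 0.05. Mmp3 was at 5.78 ± 8.24 CPM (SD, n = 3) with the empty vector and 82.2 ± 99.6 CPM with P16. Lamb3 was at 0.95 ± 0.20 and 0.42 ± 0.10 CPM. Of all genes, 3.73% in Cd31+ and 3.53% in Cd146+ cells had an unadjusted p under 0.05 in either direction.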

How the data were processed

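Cultured Cd31+ and Cd146+ mouse liver endothelial cells were analysed from 1 deposited table of 24 libraries. The authors deposited raw read counts and FPKM per gene, with sequencing and analysis done by a company. Their processing notes name fastp and mm9, while the listed coordinates of 43 of 44 chains have the same span as in GENCODE M21 (GRCm38) and 3 the same start. The aligner and counter were not given in the sources used here, nor whether strand was counted, so reads of overlapping genes may not be told apart. Columns of the authors' own comparisons (fold changes and p-values) were not used, and 0 per-sample columns were left unmapped. The methods give another number of samples than the 3 libraries per group analysed here.

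Counts were scaled by TMM, filtered with filterByExpr and tested two-sided over all genes with the quasi-likelihood test of edgeR 4.0.16 (R 4.3.3, limma 3.58.1) and Benjamini-Hochberg adjustment, with DESeq2 1.42.0 as an alternative. Errors of fold changes are standard errors. A library's floor of 3 counts was 0.113 to 0.195 CPM and covers counting error only. The deposited FPKM of the authors equalled CPM per kilobase within a ratio of 0.980 to 1.03. Levels between genes were compared per kilobase. Promoter sequences came from RefSeq.

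Libraries of one population with the same replicate number deviated together from their group means (median r 0.516, lowest 0.343 in Cd31+ over 13 pairs, and median 0.696, lowest 0.373 in Cd146+ over 10). Pairs with different numbers had a median r of -0.161 in Cd31+ and -0.067 in Cd146+ cells. Their highest r was 0.381 and 0.448, so the ranges overlap. The number was treated as a pairing within a population, which the labels do not state. Across populations the lowest r was -0.048 over 27 pairs, and numbers were not paired there. Named chains were the 8 highest per kilobase and up to 5 per direction with the smallest p under 0.05 in a construct comparison, and for the populations under an adjusted 0.05. Up to 2 genes per partner list were named. The members and lists were chosen with earlier results of these data known. Alternatives were the filter, the scaling, the tool, the libraries in the fit, the block, leaving out each library and, added after the data were seen, a term for Xist or Y-linked transcripts and leaving out the Cd146+ libraries numbered 3. The steps were tested on simulated data.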

Additional observations from a re-analysis of the deposited data

Results flagged for a closer look

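Among 66 sets of 6 control libraries (1 chain in 1 population), 5 held a library whose gap to its nearest neighbour, divided by the range of the 6 log2 values, exceeded Dixon's 95% critical value. Chance gives about 1 in 20 such sets. Of the 5, 4 concern the Cd146+ culture with the empty vector and number 4. In it Col1a1 was at 454.2 CPM where the other 5 Cd146+ control libraries were at 4561 to 12230 CPM. Col4a3 was at 167.9 CPM (others 1.76 to 4.67 CPM), Col4a4 at 152.2 CPM (others 1.89 to 6.67 CPM) and Col9a1 at 42.2 CPM (others 0 to 0.0812 CPM). Over the 24 libraries Col9a1 had a mean of 1.78 CPM and a median of 0. Only this library reached 1 CPM, so the flag of Col9a1 follows from it alone and is not to be set against the 1 in 20. The remaining one is Col5a3 in the Cd146+ culture with the empty vector and number 2, at 94.7 CPM (others 17.6 to 29.2 CPM).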

How the results depend on the processing

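Of the alternatives for single chains, 266 kept direction and side of the threshold, 44 gained a call, 20 lost it and 16 changed sign. The number of genes tested and the share of all genes called change with the setting. In silenced Cd146+ cells 5.44% of all genes were higher and 6.18% lower at an unadjusted p under 0.05, and 16.5% were called with the block on 2 groups. The counts of chains below therefore describe the settings and are no result about collagens. Chains at an unadjusted p under 0.05 after silencing in Cd31+ cells numbered 9, and 15 with all genes of at least 1 count, 23 with the replicate block on 2 groups or on 12 libraries, and 7 to 12 leaving out 1 library. After silencing in Cd146+ cells they numbered 1, and 4 with all genes of at least 1 count, 2 with 12 libraries sharing the spread, 12 and 16 with the replicate block on 2 groups and on 12 libraries, 3 by the Wald test, 4 with the term for Xist or Y-linked transcripts, 2 without the libraries numbered 3, and 1 to 5 leaving out 1 library. With P16 in Cd31+ cells there were 0, and 1 with all genes of at least 1 count, 2 with either replicate block and 0 to 1 leaving out 1 library. With P16 in Cd146+ cells there was 1, and 5 with 12 libraries, 0 with the replicate block on 12 libraries, 4 by the Wald test, 2 with the Xist term, 2 without the libraries numbered 3 and 2 to 4 leaving out 1 library. No paired analysis was possible because these 2 groups share only 1 number, other than over 12 libraries. The replicate block moved the difference in silencing from 0 to 4 chains and that in overexpression from 3 to 0, and the Wald test moved the population comparison from 0 to 2 adjusted calls.

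Some signs changed, also for chains that the replicate block calls (Col28a1, Col15a1 and Col4a4 in Cd146+ cells, Col1a2 in Cd31+ cells). After silencing in Cd146+ cells, Col28a1 was -0.0053 without the libraries numbered 3. Col4a3 was -1.52 and -1.39 with the replicate blocks, -1.07 with the Xist term and -1.07 to 1.05 leaving out 1 library, and Col4a4 was -1.30, -1.31, -0.70 and -1.32 to 1.24. With P16 in Cd146+ cells, the replicate block gave 0.22 for Col4a3 and 0.24 for Col4a4. Leaving out 1 library gave -0.10 to 0.27 for Col1a1 and -0.047 to 0.99 for Col1a2 in silenced Cd31+ cells, and -0.10 to 0.47 for Col1a1 and -0.049 to 0.42 for Col15a1 in silenced Cd146+ cells. The cause was not tested. The share of the 8 highest chains was 88.5% with FPKM. Col16a1 in silenced Cd31+ cells had an unadjusted p of 0.0888 with 12 libraries, and Col11a1 and Col28a1 had 0.0683 and 0.0589 with all genes of at least 1 count. Chains near the floor of 3 counts carry little information at this depth.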
